A study of Mus musculus with 14 samples.

Results

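The genes described here encode the DNA methyltransferases *Dnmt1*, *Dnmt3a* and *Dnmt3b* and the Tet dioxygenases *Tet1*, *Tet2* and *Tet3*. The 6 genes were found by the symbol of their row, among 19322 genes listed for E10 single cells, 19424 for E11 single cells and 19425 for whole intra-aortic haematopoietic clusters (wIAHCs). In mouse embryos, some endothelial cells of the aorta turn into blood cells, form IAHCs on the aortic wall and give rise to the first haematopoietic stem cells, and the study followed that path by single-cell RNA sequencing in the aorta-gonad-mesonephros region (AGM).

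Cells were sorted at E10 (28 to 32 somite pairs) and at E11 (more than 40 somite pairs) from pooled AGMs. Non-haemogenic endothelial cells (non-HE, Cdh5+ Gfi1- Gfi1b- c-kit-), haemogenic endothelial cells (HE, Cdh5+ Gfi1+ Gfi1b- c-kit-) and cells in endothelial-to-haematopoietic transition (EHT, Cdh5+ Gfi1+ Gfi1b- c-kit+) came from ICR embryos that carried Gfi+/tomato and Gfi1b+/GFP reporter alleles. IAHC cells (c-kit+ CD31+ and, at E11, a further sample sorted on c-kit alone), E11 pre-HSCs of type I and type II (c-kit+ Cdh5+ with a CD45 index), yolk sac haematopoietic stem and progenitor cells (YS HSPCs, c-kit+) and wIAHCs came from C57BL/6 wild-type embryos. Strain, reporter alleles and sort therefore changed together between EHT and the later populations, and their parts cannot be told apart from that step. The E10 values came from 43 non-HE, 98 HE, 191 EHT, 73 IAHC and 141 YS HSPC cells, each brought by the authors to 3000 transcripts. The E11 values came from 30 non-HE, 46 HE, 46 EHT, 62 type I and 55 type II pre-HSC, 201 c-kit+ CD31+ IAHC, 89 c-kit+ IAHC and 46 YS HSPC cells, each at 5000 transcripts. The labels gave the E10 non-HE cells as E10, whereas their 2 collection sets were named early E11 in the table. In the paper, IAHC cells were selected after sorting, by more than 1 *Gpr56* transcript and at most 2 transcripts of each non-IAHC gene. At the deposited depth 54 of 73 E10 and 140 of 201 E11 c-kit+ CD31+ IAHC cells met that rule, and all were kept here.

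The endothelial and haematopoietic marker lists followed the labels. The summed level of 9 endothelial markers was 37.7 transcripts per cell in E10 non-HE, 28.2 in HE, 8.25 in EHT, 5.16 in IAHC and 0.426 in YS HSPCs, and that of 9 haematopoietic markers was 0.279, 2.19, 8.84, 11.6 and 8.77 in the same order. At E11 the endothelial sum was 43.9 in non-HE, 53.5 in HE and 17.4 in EHT, and 1.28 to 10.4 in the other populations. The E11 EHT cells also held macrophage markers, with 7 of 8 detected and a sum of 5.59 transcripts per cell against at most 0.751 in any other population, and 2 of the 46 cells held at least 4 of the markers.

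DNA methylation places a methyl group on cytosines that precede guanines. Dnmt1 copies the mark onto the new strand after replication, Dnmt3a and Dnmt3b place it on unmarked DNA, and the Tet enzymes oxidise it as the first step of its removal. In adult blood, *Dnmt3a* and *Tet2* are known as regulators of stem cell self-renewal, whereas *Dnmt3b* is known as a methyltransferase of the early embryo. On the GRCm38.p6 assembly (RefSeq), *Dnmt1* lies at chr9:20907206-20959888, *Dnmt3a* at chr12:3801559-3914443, *Dnmt3b* at chr2:153649411-153687730, *Tet1* at chr10:62804570-62887469, *Tet2* at chr3:133463677-133545136 and *Tet3* at chr6:83362373-83457208.

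All 6 genes had at least 1 RefSeq promoter window, 10 windows in all, of which the 250 bases before the listed start site were searched. That start site can lie inside the gene interval given above, as for *Dnmt3a*, *Dnmt3b*, *Tet1*, *Tet2*, *Tet3* and the *Dnmt1* window printed in part below. Stretches of *Dnmt1* and *Dnmt3b* are printed because both genes passed 2-fold along the E10 path. *Dnmt1* was the only gene of the 6 with letters of the E2F type, the motif of many genes of DNA replication (TTTCCCGC, TTTCGCGC, TTTGCCGC or TTTGGCGC on either strand). The match, in capitals and read here on the gene's strand, lay 219 to 212 bases upstream of the start site of 1 of its 3 windows, at chr9:20952824-20952853 on the minus strand, within an annotated 5′ UTR interval. For *Dnmt3b* the stretch of the window up to the start of the gene interval, at chr2:153649199-153649410 on the plus strand, is shown with its 16 CpG dinucleotides in capitals.
Dnmt1: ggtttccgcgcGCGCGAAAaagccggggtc
Dnmt3b: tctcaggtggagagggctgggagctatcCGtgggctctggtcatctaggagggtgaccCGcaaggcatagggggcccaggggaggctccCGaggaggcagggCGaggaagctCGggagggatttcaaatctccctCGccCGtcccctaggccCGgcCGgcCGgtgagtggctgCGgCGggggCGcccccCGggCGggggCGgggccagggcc

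E2F-type letters stood in 611 of 32851 windows (1.86%) and in at least 1 window of 583 of 27025 genes, against 5 of 15 S phase genes with a window (*Cdc6*, *Mcm5*, *Mcm6*, *Mcm7* and *Pola1*). The letters CCAAT, found in 33.8% of windows, occurred in 2 *Dnmt1* windows and in that of *Tet3*. No window of the 6 genes held the ETS letters CCGGAAGT (2.88% of windows), the RUNX letters TGTGGT (14%) or the GATA letters AGATAA (9.99%) on either strand. The *Tet2* window of 250 bases, which lies inside its gene interval, held 51 CpG dinucleotides, more than 99.9% of windows, where the median window held 6. The corresponding counts were 21 for *Dnmt3b*, 15 for *Tet1*, 17 for *Tet3*, 15 to 40 over the *Dnmt3a* windows and 2 to 26 over those of *Dnmt1*.

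The labels gave 1 sample per single-cell population, so no test was made between populations. Levels are means of transcripts per cell with 95% Poisson intervals, which cover counting error only, and the spread between the collection sets of a population was the only replicate-like spread. CEL-Seq counts 3′ ends of transcripts, so levels of different genes needed no scaling by length, and isoforms of a gene could not be separated. A gene was counted as higher or lower when it differed at least 2-fold and reached 0.2 transcripts per cell in either population.

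The de novo methyltransferase *Dnmt3b* separated non-HE and HE from EHT and the haematopoietic populations at both stages. At E10 its level was 0.0465 transcripts per cell in non-HE (0.00563 to 0.168, 2 transcripts in all), 0.378 in HE (0.266 to 0.520), 1.099 in EHT (0.956 to 1.259), 1.356 in IAHC (1.102 to 1.651) and 1.149 in YS HSPCs (0.979 to 1.340). At least 1 *Dnmt3b* transcript was found in 4.65% of non-HE, 31.6% of HE, 62.8% of EHT, 68.5% of IAHC and 66.0% of YS HSPC cells. Thus non-HE and HE lay below the other populations with no overlap of intervals, whereas EHT, IAHC and YS HSPCs overlapped. The collection sets kept this order, with 0.0357 and 0.0667 in non-HE, 0.351 and 0.393 in HE, and 1.016, 1.080 and 1.275 in EHT.

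*Dnmt3b* was 8.12-fold higher in E10 HE than in non-HE (log2 ratio 3.02, 95% interval 1.07 to 6.12) and 2.91-fold higher in EHT than in HE (1.54, 1.03 to 2.09). From EHT to IAHC the log2 ratio was 0.30 (−0.06 to 0.65), below 2-fold. The first of these steps rested on 2 transcripts in non-HE. With E11 non-HE cells thinned to 3000 transcripts in place of the E10 non-HE cells, which were chosen after seeing the data because of the naming of the sets, the log2 ratio to E10 HE was 1.18.

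At E11 *Dnmt3b* stood at 0.267 transcripts per cell in non-HE (0.115 to 0.525) and 0.174 in HE (0.0751 to 0.343), on 8 transcripts each. It reached 1.152 in EHT (0.863 to 1.507), 1.242 in pre-HSCs of type I (0.980 to 1.552), 1.945 in those of type II (1.594 to 2.351), 1.667 in c-kit+ CD31+ IAHC cells (1.493 to 1.855), 1.899 in c-kit+ IAHC cells (1.623 to 2.208) and 2.109 in YS HSPCs (1.710 to 2.572). The intervals of non-HE and HE overlapped each other and lay below all others, and from EHT on each interval overlapped that of its neighbour in the order of levels. EHT was 6.62-fold above HE (log2 ratio 2.73, 1.65 to 4.01), with 1 collection set on each side. Without the 2 macrophage-marked EHT cells the log2 ratio was 2.79.

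Type II pre-HSCs, the more mature form that carries CD45, held more *Dnmt3b* than type I, by a log2 ratio of 0.65 (0.21 to 1.09), short of 2-fold. At the deposited depth their collection sets did not overlap, with 1.0 and 1.235 transcripts per cell and, in the other set, 27 transcripts in 20 cells in type I, and 1.7, 1.900 and 2.080 in type II. Sets with the same number in their column names gave 1.0 and 1.7, 1.235 and 2.080, and 27 and 38 transcripts in 20 cells each, so type II was higher in each of 3 pairs, and whether such sets share embryos is not given. With cells thinned to 3000 transcripts the log2 ratio was 0.66, but the set means overlapped, since the highest of type I was 0.9 and the lowest of type II 0.6. Both types were deposited at 5000 transcripts, so the thinning only discarded counts, in a single random draw. The E11 c-kit+ CD31+ IAHC sets, at 1.475, 1.694, 1.744 and 1.800, lay above those of type I and overlapped those of type II, whereas those of the c-kit+ IAHC sample ranged from 1.143 to 2.320.

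*Dnmt1*, the maintenance enzyme, was lower in E10 non-HE than in every other E10 population. Its level was 0.372 transcripts per cell in non-HE (0.213 to 0.604), 1.061 in HE (0.867 to 1.286), 1.147 in EHT (1.0 to 1.309), 1.055 in IAHC (0.832 to 1.318) and 1.213 in YS HSPCs (1.038 to 1.409). The last 4 overlapped, and 63.3% to 68.1% of their cells held a *Dnmt1* transcript against 32.6% of non-HE cells. HE exceeded non-HE by a log2 ratio of 1.51 (0.75 to 2.37). That difference depended in size on the non-HE sets, at 0.286 and 0.533 transcripts per cell, and without the lower set the log2 ratio was 0.99, just under 2-fold.

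At E11 *Dnmt1* was low in HE as well as in non-HE. It measured 0.667 transcripts per cell in non-HE (0.407 to 1.030) and 0.630 in HE (0.422 to 0.905), then 1.152 in EHT (0.863 to 1.507), 1.258 in pre-HSCs of type I (0.994 to 1.5701), 1.582 in those of type II (1.267 to 1.951), 1.711 in c-kit+ CD31+ IAHC cells (1.535 to 1.902), 1.348 in c-kit+ IAHC cells (1.118 to 1.612) and 1.348 in YS HSPCs (1.033 to 1.728). No E11 step passed 2-fold for *Dnmt1*, with log2 ratios of 0.87 (0.19 to 1.58) from HE to EHT and 0.57 (0.15 to 1.02) from EHT to c-kit+ CD31+ IAHC cells. The summed level of 18 S phase genes, which include the replicative helicase subunits, moved with *Dnmt1*. It was 4.88 transcripts per cell in E10 non-HE, 9.08 in E10 HE and 11.2 to 14.8 in the other E10 populations, against 7.03 in E11 non-HE, 3.63 in E11 HE and 10.7 to 18.6 in the other E11 populations. The S phase genes and *Dnmt1* within single populations are described with the cell tertiles.

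*Dnmt3a*, the other de novo enzyme, was present at similar levels in endothelial and haematopoietic cells of the AGM. At E10 it measured 0.814 transcripts per cell in non-HE (0.567 to 1.132), 0.939 in HE (0.757 to 1.151), 1.031 in EHT (0.892 to 1.186) and 0.849 in IAHC (0.651 to 1.089), with overlapping intervals. YS HSPCs had the lowest level, 0.525 (0.412 to 0.659), and a *Dnmt3a* transcript in 36.2% of cells. At E11 it measured 1.167 in non-HE, 1.087 in HE, 1.478 in EHT, 1.2097 in pre-HSCs of type I, 1.545 in those of type II, 1.289 in c-kit+ CD31+ IAHC cells and 1.258 in c-kit+ IAHC cells. YS HSPCs were again lowest, at 0.674 (0.458 to 0.957). The log2 ratio of YS HSPCs to IAHC was −0.69 (−1.20 to −0.18) at E10 and −0.94 (−1.52 to −0.39) at E11, both short of 2-fold. With E11 cells thinned to 3000 transcripts the second was −1.09.

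**Figure D1:**
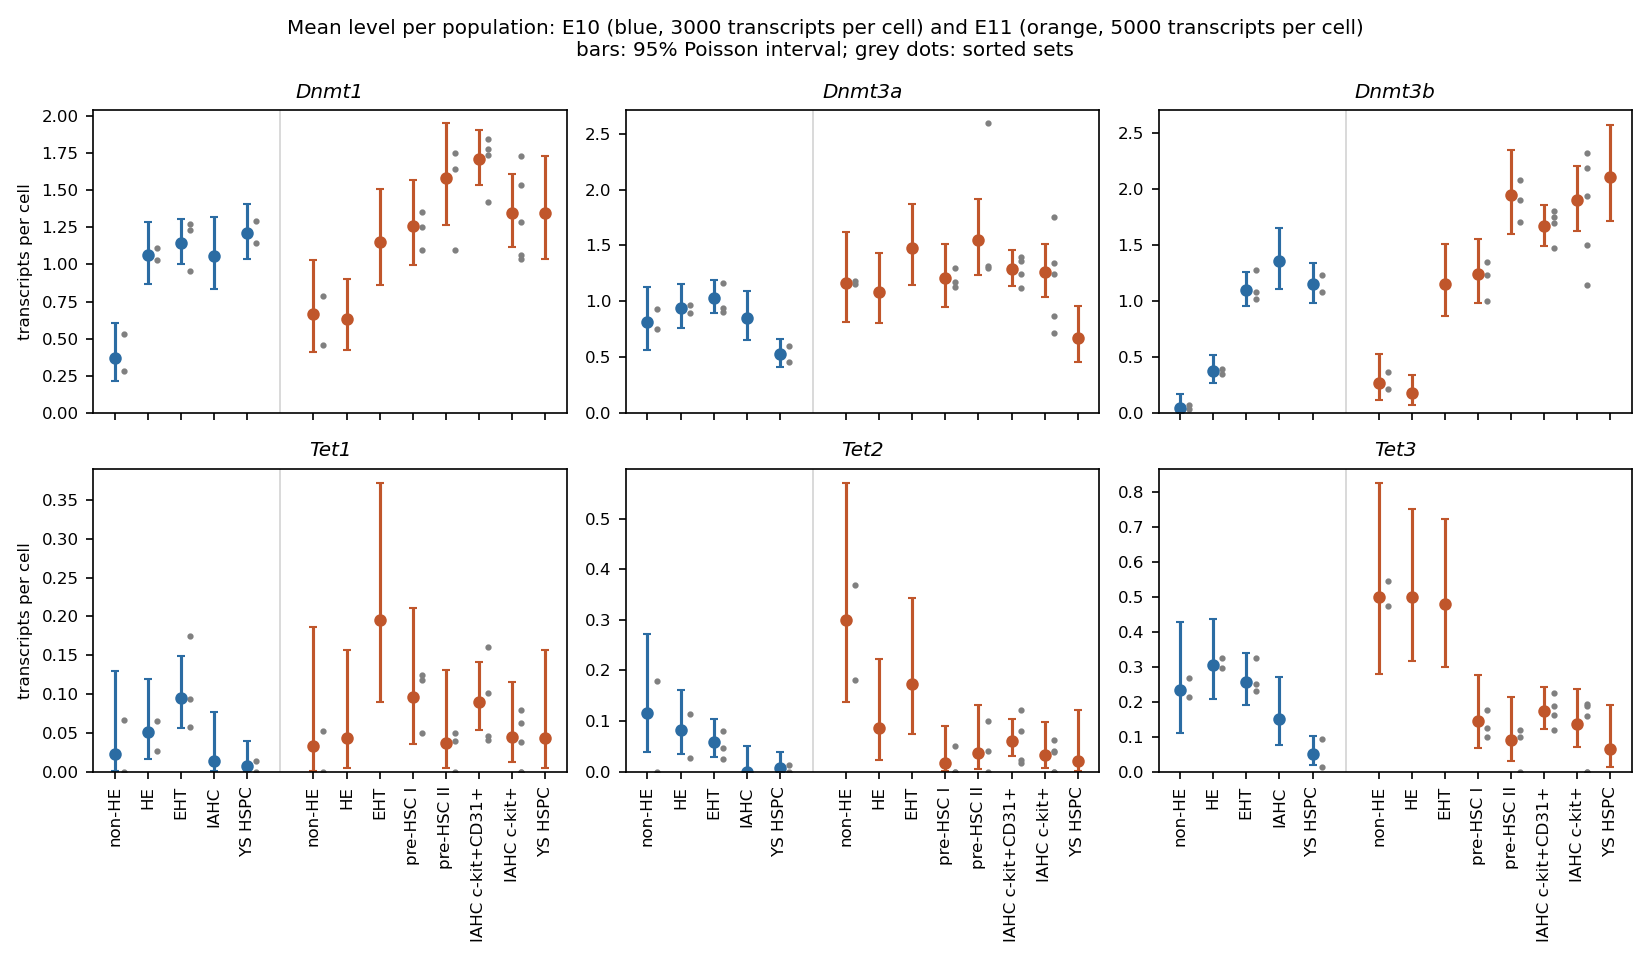
Levels of the 6 genes in the 13 single-cell populations, in transcripts per cell at the deposited depth (3000 at E10, 5000 at E11), with 95% Poisson intervals and the means of single collection sets as small points. *Dnmt3b* lies at 0.0465 to 0.378 in E10 and E11 non-HE and HE and at 1.099 to 2.109 in the other populations, whereas *Dnmt3a* stays between 0.525 and 1.545.

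The makeup of the de novo enzymes followed from these levels. *Dnmt3b* made up 5.41% of all *Dnmt3a* and *Dnmt3b* transcripts in E10 non-HE (95% Clopper-Pearson interval 0.661 to 18.2), 28.7% in HE (21.1 to 37.3), 51.6% in EHT (46.6 to 56.5), 61.5% in IAHC (53.5 to 69.0) and 68.6% in YS HSPCs (62.3 to 74.5). At E11 the share was 18.6% in non-HE, 13.8% in HE, 43.8% in EHT, 50.7% to 60.1% in pre-HSCs and IAHC cells and 75.8% (67.4 to 82.9) in YS HSPCs. Unlike the levels, this share does not depend on the total to which cells were scaled, and it was highest in YS HSPCs at both stages. Both enzymes were often detected in the same cell, in 36.6% of E10 EHT cells and 56.2% of E11 c-kit+ CD31+ IAHC cells, where independent detection gives 37.5% and 57.1%.

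The Tet genes together gave fewer transcripts than the methyltransferases in all 13 populations, although *Tet3* lay above *Dnmt3b* in non-HE at both stages and in E11 HE. Of all transcripts of the 6 genes, the Tet genes gave 23.2% in E10 non-HE (95% Clopper-Pearson interval 13.9 to 34.9), 15.6% in HE, 11.1% in EHT, 4.80% in IAHC and 2.16% in YS HSPCs (0.994 to 4.07). At E11 they gave 28.4% in non-HE, 25% in HE, 18.3% in EHT (13.4 to 24.2) and 3.06% to 6.50% in the 5 other populations. The share also falls where methyltransferase transcripts rise, and the Tet level itself did not fall up to EHT. Summed over the 3 genes it was 0.372 transcripts per cell in E10 non-HE, 0.439 in HE and 0.408 in EHT, with overlapping intervals, then 0.164 in IAHC and 0.0638 in YS HSPCs. At E11 it was 0.833, 0.630 and 0.848 in non-HE, HE and EHT, and 0.130 to 0.323 in the 5 other populations. A transcript of at least 1 Tet gene was found in 29.8% of E10 EHT and 5.67% of E10 YS HSPC cells, and in 50% of E11 EHT and 13% of E11 YS HSPC cells.

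**Figure D2:**
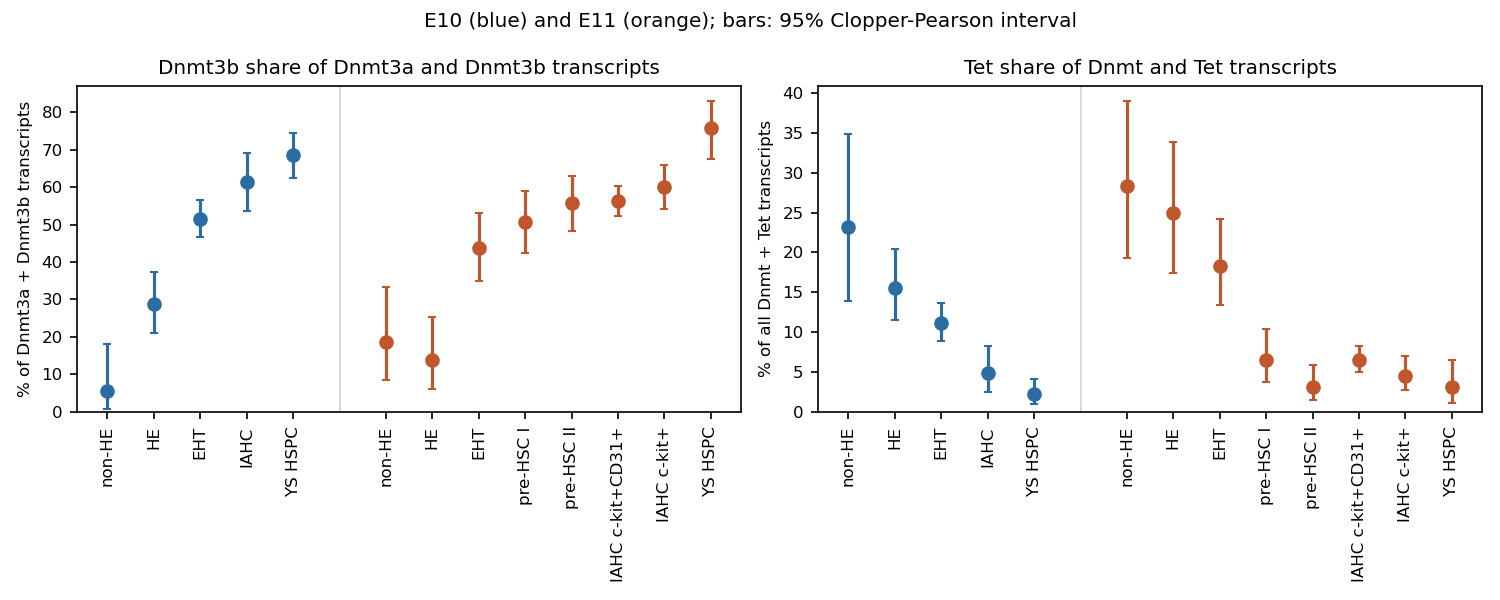
Share of *Dnmt3b* in the transcripts of *Dnmt3a* and *Dnmt3b* (left, %) and share of the 3 Tet genes in the transcripts of all 6 genes (right, %) in each population, with 95% Clopper-Pearson intervals, E10 in blue and E11 in orange. The *Dnmt3b* share runs from 5.41% in E10 non-HE to 75.8% in E11 YS HSPCs, and the Tet share from 28.4% in E11 non-HE to 2.16% in E10 YS HSPCs.

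*Tet3* had the most transcripts of the 3 Tet genes in all 13 populations, and at E11 it was lower after EHT. It stood at 0.50 transcripts per cell in E11 non-HE (0.280 to 0.825), 0.50 in HE (0.317 to 0.750) and 0.478 in EHT (0.300 to 0.724), then at 0.145 in pre-HSCs of type I (0.0664 to 0.276), 0.0909 in those of type II, 0.174 in c-kit+ CD31+ IAHC cells (0.121 to 0.242), 0.135 in c-kit+ IAHC cells and 0.0652 in YS HSPCs. At this depth the intervals of the 3 reporter-sorted populations overlapped each other and lay above those of the 5 others. With E11 cells thinned to 3000 transcripts the levels were 0.20 in non-HE (0.0734 to 0.435), 0.413 in HE (0.249 to 0.645) and 0.261 in EHT (0.135 to 0.456). The intervals of non-HE and EHT then overlapped that of type I pre-HSCs (0.0454 to 0.233). That thinning was a single random draw, which kept 6 of 15 *Tet3* transcripts in non-HE, 19 of 23 in HE and 12 of 22 in EHT. *Tet3* was 3.29-fold lower in type I pre-HSCs than in EHT (log2 ratio −1.72, −3.02 to −0.54) and 2.75-fold lower in c-kit+ CD31+ IAHC cells (−1.46, −2.27 to −0.62). The EHT value came from 1 collection set, and strain changed at this step. Without the 2 macrophage-marked EHT cells the log2 ratios were −1.65 and −1.38, and with thinned cells −1.2082 and −1.13.

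At E10 the *Tet3* levels along the AGM overlapped, at 0.233 transcripts per cell in non-HE, 0.306 in HE, 0.257 in EHT and 0.151 in IAHC, with 0.0496 in YS HSPCs. The log2 ratio of IAHC to EHT was −0.77 (−1.86 to 0.20), an interval that holds both no difference and the E11 value.

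*Tet1* and *Tet2* were near the limit of detection. *Tet1* was highest in EHT at both stages, with 18 transcripts in 191 cells at E10 (0.0942 per cell) and 9 in 46 cells at E11 (0.196 per cell), and gave 1 to 6 transcripts in each of the other populations except the c-kit+ CD31+ IAHC cells of E11 (18 transcripts, 0.0896 per cell). None of the cells with a *Tet1* transcript held a transcript of any of 9 germ cell genes, which gave 0 to 8 transcripts in all cells of a population. *Tet2* was highest in non-HE at both stages, with 5 transcripts at E10 (0.116 per cell) and 9 at E11 (0.300 per cell). All 5 at E10 came from 1 collection set of 28 cells, and the other set of 15 cells had 0. No *Tet2* transcript was counted in the 73 E10 IAHC cells, where an allowance of 3 transcripts corresponds to 4.11% of cells with a counted transcript (95% Clopper-Pearson upper limit 4.928%), which does not limit the share of cells that express the gene. At E11 *Tet2* was 3.45-fold lower in HE than in non-HE on 9 and 4 transcripts (log2 ratio −1.79, −3.94 to 0.05), an interval that includes no difference, and without 1 of the 2 non-HE sets both levels were under 0.2 transcripts per cell.

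Along the E10 path, the genes of this group past 2-fold that reached 0.2 transcripts per cell were methyltransferases, and none of them was lower. From non-HE to HE, 2 of the 4 genes that reached 0.2 transcripts per cell were higher (*Dnmt1* and *Dnmt3b*), where 9.24% of all 4251 genes at that level were higher and 9.1% lower. From HE to EHT, 1 of 4 was higher (*Dnmt3b*), against 7.68% of all genes higher and 11% lower. From EHT to IAHC and from IAHC to YS HSPCs, none of 4 and of 3 genes passed 2-fold, where 6.41% and 8.87% of all genes were higher and 11.4% were lower in each. Below the required level, *Tet1* gave a log2 ratio of −2.78 (−8.16 to −0.12) from EHT to IAHC, on 18 and 1 transcripts, and *Tet3* one of −1.60 (−3.21 to −0.10) from IAHC to YS HSPCs, on 11 and 7.

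At E11, 1 of 5 genes at the required level was lower in HE than in non-HE (*Tet2*; all genes, 11% higher and 11.3% lower), and 1 of 4 was higher in EHT than in HE (*Dnmt3b*; 12.6% and 17.3%). From EHT to type I pre-HSCs and from EHT to c-kit+ CD31+ IAHC cells, 1 of 4 was lower in each (*Tet3*), against 17.3% and 17.2% of all genes lower and 8.27% and 10.9% higher. Below the required level, *Tet2* gave −3.43 (−8.90 to −0.53) and −1.54 (−2.95 to −0.05) at these steps, on 8 transcripts in EHT against 1 and 12. Between the types of pre-HSC, and between IAHC cells and YS HSPCs, none of 3 passed 2-fold, against 5.29% higher and 5.29% lower, and 5.16% higher and 14.5% lower, of all genes. With so few genes, a share of 1 in 4 or 5 cannot be set apart from these percentages.

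**Figure D3:**
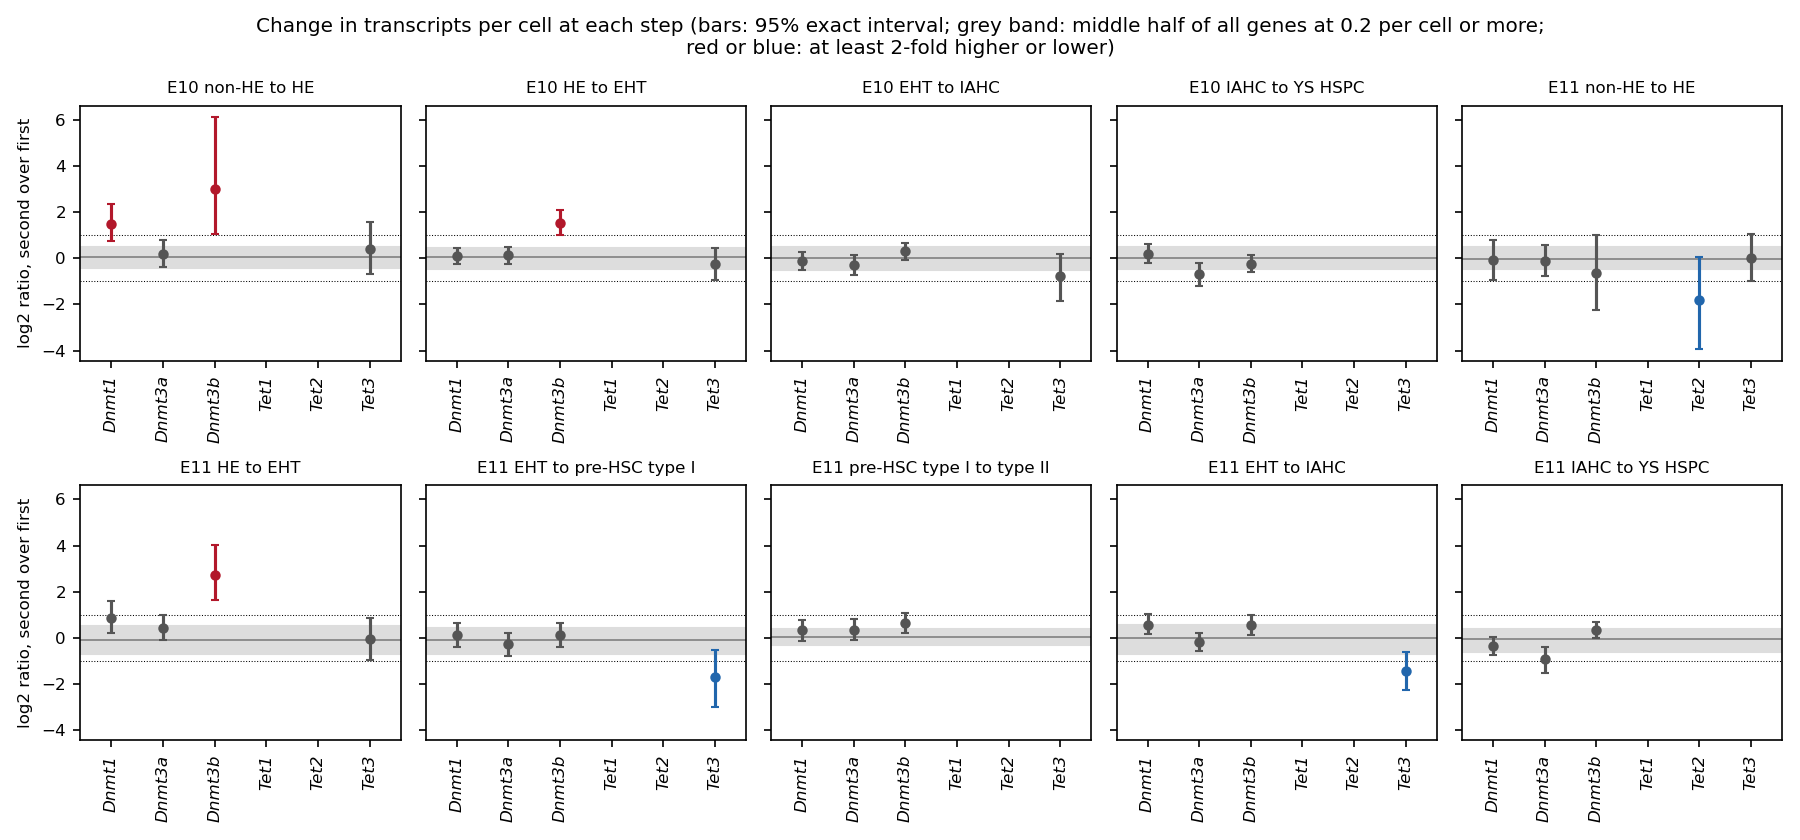
Log2 ratios of the 6 genes between populations (second over first), with exact 95% intervals from the transcript counts, drawn where the gene reached 0.2 transcripts per cell in either population, with lines at 2-fold in either direction. *Dnmt3b* lies beyond 2-fold in E10 non-HE to HE and in HE to EHT at both stages (3.02, 1.54 and 2.73), and *Tet3* beyond 2-fold downwards in the E11 steps from EHT (−1.72 and −1.46).

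E10 and E11 cells of the same sort were compared after thinning each E11 cell to 3000 transcripts in a single random draw. In HE, *Dnmt1* was lower at E11, at 0.435 against 1.06 transcripts per cell (log2 ratio −1.29, −2.06 to −0.59), as was *Dnmt3b*, at 0.0870 against 0.378 (−2.12, −4.07 to −0.64), the latter on 4 transcripts. The median log2 ratio of all 4028 genes at that level was −0.26, and 2 of the 4 members that reached it were lower, against 15% of all genes lower and 6.11% higher. *Dnmt3a* in HE gave −0.97 (−1.72 to −0.29) and *Tet3* 0.43. The S phase sum, at the deposited depths of 3000 and 5000, was also lower in E11 HE, 3.63 against 9.08 transcripts per cell, and its part in the *Dnmt1* difference was not tested.

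Of the members that reached 0.2 transcripts per cell, none of 3 in non-HE, 4 in EHT, 3 in IAHC cells and 3 in YS HSPCs passed 2-fold between stages. Below that level, *Dnmt3b* in non-HE (2 transcripts at E10 and 5 at E11) and *Tet1* in IAHC cells (1 and 13) gave ratios of 3.58 and 4.721, with log2 intervals of −0.77 to 5.23 and −0.50 to 7.65. The log2 ratios in EHT were −0.91 for *Dnmt1* (−1.54 to −0.34) and −0.66 for *Dnmt3b* (−1.25 to −0.12), beside a median of −0.37 over all genes, 15.1% of which were lower and 3.83% higher. In IAHC cells *Dnmt1* gave 0.04, *Dnmt3a* −0.11 and *Dnmt3b* −0.50 (−0.86 to −0.13), beside a median of −0.39 with 10.8% of genes lower and 1.23% higher. *Dnmt1* in YS HSPCs gave −0.76 (−1.34 to −0.21), beside a median of −0.50 with 21% of genes lower and 2.66% higher, and in non-HE it gave 0.33, beside −0.18 with 15.4% lower and 7.91% higher. *Dnmt1* lay below the lower quartile of all genes in EHT (−0.77), and above the upper quartile in IAHC cells (−0.08) and non-HE (0.31). Its positions in EHT and non-HE depend on the thinning draw, which kept 28 of 53 *Dnmt1* transcripts in E11 EHT and 14 of 20 in E11 non-HE. In HE, *Dnmt1*, *Dnmt3b* and *Dnmt3a* lay below the lower quartile (−0.72) and *Tet3* above the upper (0.24). The thinning draw kept 22 of 50 *Dnmt3a* and 19 of 23 *Tet3* transcripts in E11 HE. The positions of *Dnmt3a* and *Tet3* in HE therefore depend on that draw. Inside the quartiles were *Dnmt3b* in EHT, *Dnmt3a* and *Dnmt3b* in IAHC cells and *Dnmt1* in YS HSPCs.

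Within a population, cells were split into tertiles by their summed S phase transcripts. *Dnmt1* was higher in cells with more S phase transcripts. In E10 HE it measured 0.576, 0.818 and 1.812 transcripts per cell in the lowest, middle and highest tertile (ratio of highest to lowest 3.148, 1.848 to 5.598). The levels were 0.656, 1.359 and 1.429 in E10 EHT (ratio 2.177, 1.493 to 3.219) and 1.124, 1.649 and 2.031 in all 290 E11 IAHC cells (ratio 1.808, 1.423 to 2.307). In E10 YS HSPCs the tertiles overlapped, at 1.043, 1.298 and 1.298 (ratio 1.245, 0.841 to 1.852).

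For *Dnmt3b* and *Dnmt3a* no such order was resolved. The ratio of highest to lowest tertile for *Dnmt3b* was 0.580 in E10 HE (0.226 to 1.394), 1.177 in E10 EHT (0.829 to 1.676) and 1.077 in E11 IAHC cells (0.867 to 1.340). For *Dnmt3a* the ratios were 0.678, 0.867 and 0.777 (the last with 0.601 to 1.004). Across the 13 populations, by contrast, *Dnmt1* and *Dnmt3b* both moved with the S phase sum, with Pearson correlations of 0.86 and 0.87, and with each other at 0.82. These correlations are descriptions over populations of 1 sample each, and E11 values in them were thinned to the E10 depth.

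Cells were also split by their endothelial markers. In E10 EHT cells *Dnmt3b* measured 1.391, 1.156 and 0.746 transcripts per cell from the lowest to the highest endothelial tertile (ratio 0.536, 0.368 to 0.772). In all E11 IAHC cells it measured 2.052, 1.691 and 1.469 (ratio 0.716, 0.573 to 0.893), and in pre-HSCs of both types 1.923, 1.538 and 1.256 (ratio 0.653, 0.446 to 0.949). *Dnmt1* differed as well in the pooled pre-HSCs, at 1.923, 1.026 and 1.282 (ratio 0.667, 0.457 to 0.966), but this was not resolved within type I (0.886, 0.511 to 1.526) or type II (0.821, 0.483 to 1.384), and its ratios were 0.951 (0.681 to 1.325) in E10 EHT and 0.958 (0.758 to 1.2098) in E11 IAHC cells. In the E11 c-kit+ CD31+ IAHC cells alone the *Dnmt3b* ratio was 0.808 (0.615 to 1.059), and in E10 IAHC cells it was 1.008 (0.589 to 1.722). Within type I pre-HSCs alone the *Dnmt3b* ratio was 0.833 (0.460 to 1.491) and within type II alone 0.812 (0.487 to 1.341), a split added after seeing the data because the types differ in *Dnmt3b*. Thus a lower *Dnmt3b* level in the more endothelial cells was resolved in E10 EHT cells and in the pooled IAHC and pooled pre-HSC cells, and was not resolved within the c-kit+ CD31+ IAHC cells of either stage or within either type of pre-HSC.

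Other measures moved with the endothelial tertiles. In E11 IAHC cells the myeloid marker sum was 1.75, 1.09 and 0.552 transcripts per cell and the S phase sum 15.3, 15.4 and 13.5. In E10 EHT cells the haematopoietic marker sum was 9.61, 9.92 and 6.97, the myeloid sum 0.922, 0.391 and 0.127 and the S phase sum 11.9, 11.8 and 9.84. In the pooled pre-HSCs the S phase sum was 19.154, 12.7 and 14.4 and the myeloid sum 1.846, 1.103 and 0.641. Their part in the *Dnmt3b* and *Dnmt1* differences was not tested. Over the same tertiles of E11 IAHC cells *Dnmt3a* was 1.134, 1.299 and 1.406 (ratio 1.2401, 0.957 to 1.610) and *Dnmt1* 1.577, 1.711 and 1.510, and *Tet3* in E10 EHT was 0.172, 0.281 and 0.317 (ratio 1.847, 0.844 to 4.268). In these 3 cases the intervals of the lowest and highest tertile overlapped.

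**Figure D4:**
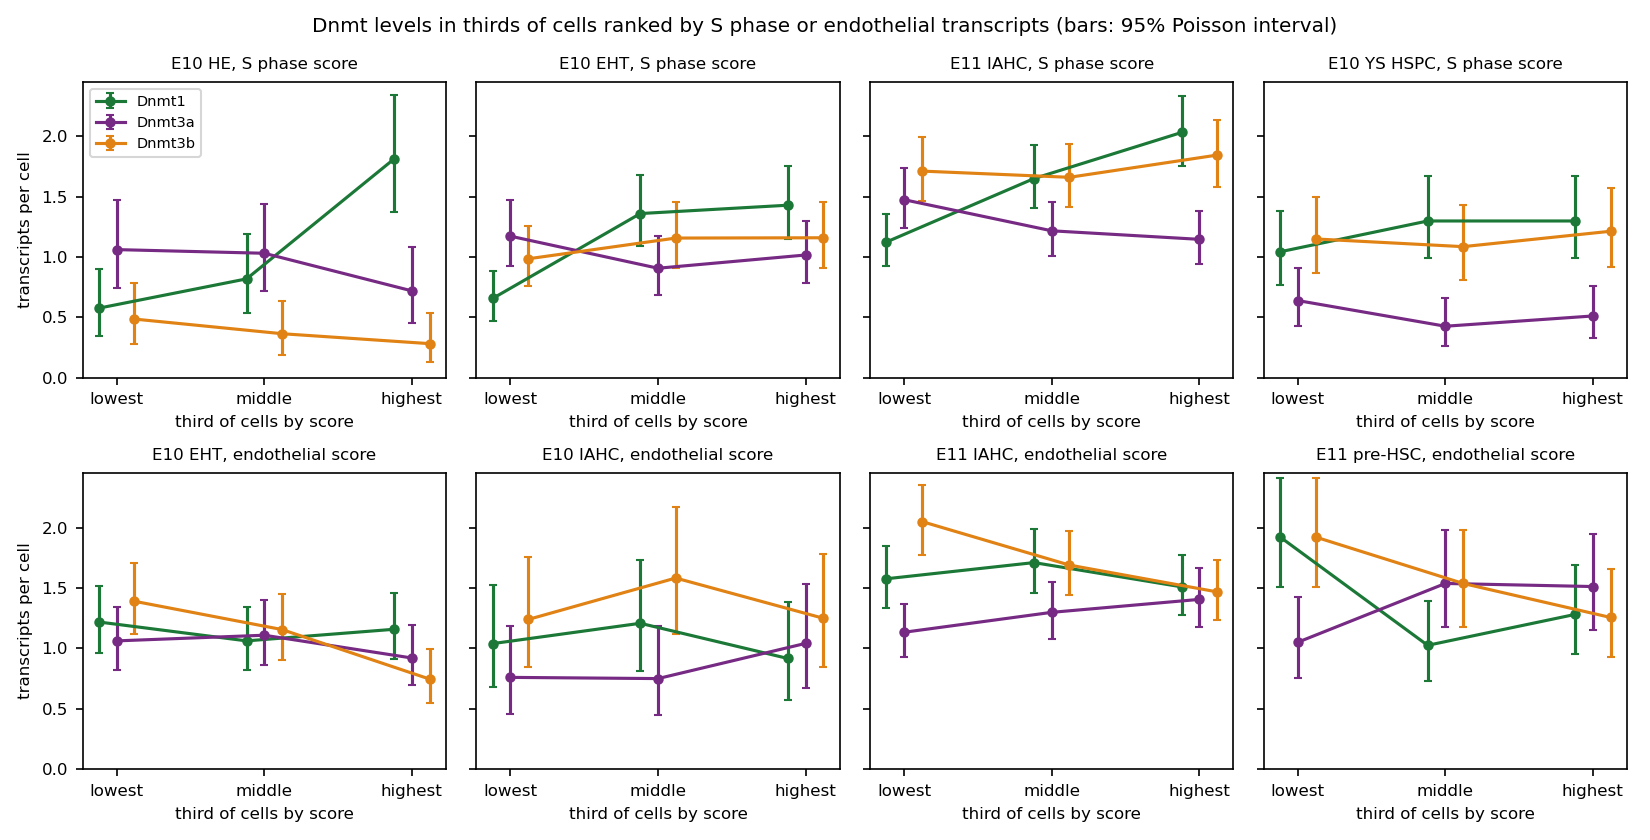
Transcripts per cell of *Dnmt1*, *Dnmt3a* and *Dnmt3b* in the lowest, middle and highest tertile of cells by S phase sum and by endothelial marker sum, with 95% Poisson intervals. In E10 HE *Dnmt1* is higher with the S phase sum (0.576, 0.818 and 1.812), and in E10 EHT *Dnmt3b* is lower with the endothelial sum (1.391, 1.156 and 0.746). Not every population showed this. The ratio of highest to lowest tertile was 1.245 for *Dnmt1* in E10 YS HSPCs (0.841 to 1.852) and 1.008 for *Dnmt3b* in E10 IAHC cells (0.589 to 1.722).

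Over the 13 populations, the genes whose levels were most like those of each methyltransferase were sought among 2384 genes that reached 0.5 transcripts per cell in at least 1 population, by Pearson correlation of log2 levels. For *Dnmt1* they were *Mta1*, a subunit of the NuRD deacetylase complex (0.972), *Snrpb*, a core spliceosome protein (0.951), and *Zcchc3* (0.946). For *Dnmt3b* they were *Gusb*, the lysosomal beta-glucuronidase (0.981), *Snrpd1*, a further spliceosome core protein (0.972), and *Dctd*, the deoxycytidylate deaminase of nucleotide synthesis (0.969). For *Dnmt3a* the highest values were lower, with *Prrc2c* (0.852), *Csnk1a1*, a casein kinase (0.843), and *Esd* (0.792). The levels used here were those of E11 cells thinned to 3000 transcripts, at which no Tet gene reached 0.5 transcripts per cell (*Tet3* was highest, at 0.413 in E11 HE). *Dnmt3b* correlated with *Tet2* at −0.74 and with *Tet3* at −0.66, and with *Dnmt3a* at 0.09.

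Genes that act with these enzymes were taken from a list of 49, of which 48 had a row. From E10 non-HE to HE, 26 of them reached 0.2 transcripts per cell, 6 were at least 2-fold higher and 2 lower, with a median log2 ratio of 0.54 against 0.05 over all genes. All genes at that level gave 9.24% higher and 9.1% lower. The higher ones were *Uhrf1*, which brings Dnmt1 to newly copied DNA (3.78-fold), the DNA ligase *Lig1* (2.69-fold), *Uhrf2*, a relative of Uhrf1 (2.15-fold), *Cdca7*, a partner of the remodeller Hells (2.96-fold), the CpG-binding *Cxxc1* (2.46-fold) and *Mat2b*, of methyl donor synthesis (2.34-fold). The methyl-CpG reader *Zbtb4* was 3.55-fold lower and *Ogt*, a sugar transferase that binds Tet proteins, 2.07-fold lower. From E10 HE to EHT, 4 of 26 were higher (*Hells* 2.66-fold, *Cdca7* 2.41-fold, and *Ahcy* 2.06-fold and *Shmt1* 11.03-fold, of the methyl donor cycle) and 1 lower, with a median of 0.19, against 7.68% of all genes higher and 11% lower.

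From E11 HE to EHT, 10 of 33 genes at the required level were at least 2-fold higher and 3 lower, against 12.6% and 17.3% of all genes, with a median log2 ratio of 0.51 against −0.08 over all genes. The higher ones included *Uhrf1* (3.82-fold), *Hells* (6.0-fold), the replication clamp *Pcna* (2.69-fold), *Lig1* (3.29-fold), *Cdca7* (2.5-fold) and the methyl-CpG reader *Mbd2* (2.78-fold). A further 4 belong to the methyl donor cycle, *Mat2a* (2.14-fold), *Ahcy* (4.13-fold), *Shmt2* (3.11-fold) and *Shmt1*, which was at least 4-fold higher since HE had no transcript. The lower ones included *Zbtb4* (5.5-fold) and *Idh1* (2.78-fold). From E11 non-HE to HE the median was −0.17, and 2 of 30 genes were higher and 4 lower (all genes, 11% and 11.3%), with *Hells* 4.6-fold and *Lig1* 2.63-fold among the latter.

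After EHT the list moved in both directions. From E11 EHT to type I pre-HSCs, 3 of 31 genes were higher and 7 lower, and from EHT to c-kit+ CD31+ IAHC cells 5 of 31 were higher and 8 lower, with medians of −0.01 and 0.11. Of all genes, 8.27% were higher and 17.3% lower at the former step, and 10.9% higher and 17.2% lower at the latter. Lower in both were *Mbd4*, a glycosylase that repairs deaminated methylcytosine (4.38-fold and 4.734-fold), and *Ogt* (2.48-fold and 2.35-fold), beside the *Tet3* difference at the same steps. *Idh2*, a mitochondrial dehydrogenase that makes the cofactor of Tet enzymes, was higher in both (2.79-fold and 2.98-fold). From E10 EHT to IAHC 1 of 25 was higher and 3 lower (all genes, 6.41% and 11.4%), and between the types of pre-HSC 0 of 25 were higher and 1 lower (*Gadd45g*, 3.19-fold), against 5.29% of all genes in each direction. Between stages in HE, 2 of 27 were higher and 7 lower at E11, with a median of −0.49 (all genes, 6.11% and 15%). The lower ones included *Uhrf1* (3.60-fold), *Pcna* (3.89-fold) and *Lig1* (3.83-fold). In non-HE, 6 of 27 were higher and 3 lower at E11 (all genes, 7.91% and 15.4%). In EHT, 0 of 25 were higher and 5 lower, *Uhrf1* and *Lig1* among them (all genes, 3.83% and 15.1%). In IAHC cells 1 of 21 was lower and in YS HSPCs 4 of 22, with 0 higher in each. Of all genes, 10.8% and 21% were lower there, and 1.23% and 2.66% higher. *Dnmt3l*, a cofactor of the de novo enzymes in germ cells, had no transcript in any population, and an allowance of 3 transcripts in the 191 E10 EHT cells corresponds to 0.0157 transcripts per cell.

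The wIAHCs were picked as whole clusters from the ventral and dorsal sides of the aorta, and each cluster was a library. A bulk library cannot separate fewer cells of a type from less RNA per cell. Of 109 libraries, 57 had at least 5000 transcripts (7 E10 dorsal, 21 E10 ventral, 12 E11 dorsal and 17 E11 ventral), with totals of 5099 to 115328. The labels gave 1 sample per stage and clusters of 1 embryo could not be recognised, so p-values measure the spread between clusters. Erythroid markers reached 2627 per 10000 transcripts in an E11 dorsal and 2274 in an E11 ventral cluster, with medians of 18.5 and 29.5 at E11 and 3.010 and 1.517 at E10.

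The methyltransferases were found in most clusters of both stages and sides. *Dnmt3b* had a median of 2.865 transcripts per 10000 in E10 dorsal clusters (1.214 to 6.057), 3.010 in E10 ventral (1.384 to 7.506), 2.333 in E11 dorsal (0 to 8.744) and 2.410 in E11 ventral clusters (0 to 9.963). The medians of *Dnmt1* were 2.628 (0 to 5.444), 2.773 (1.170 to 6.510), 2.344 (0 to 7.908) and 2.500 (0 to 6.613) in the same order. *Dnmt3a* gave 3.053 (1.869 to 4.534), 2.153 (0 to 8.441), 4.359 (0 to 6.533) and 2.223 (0 to 6.613). The ranges of all groups overlapped for each gene.

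The Tet genes were at 0 in many clusters. *Tet1* was detected in 5 of 7 E10 dorsal, 9 of 21 E10 ventral, 9 of 12 E11 dorsal and 7 of 17 E11 ventral clusters, with a highest value of 2.92 per 10000 in an E11 dorsal cluster. *Tet2* was detected in 2, 13, 3 and 6 and *Tet3* in 3, 11, 6 and 10 of the clusters in the same order. The highest *Tet3* value, 3.63, was also that of an E11 dorsal cluster.

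**Figure D5:**
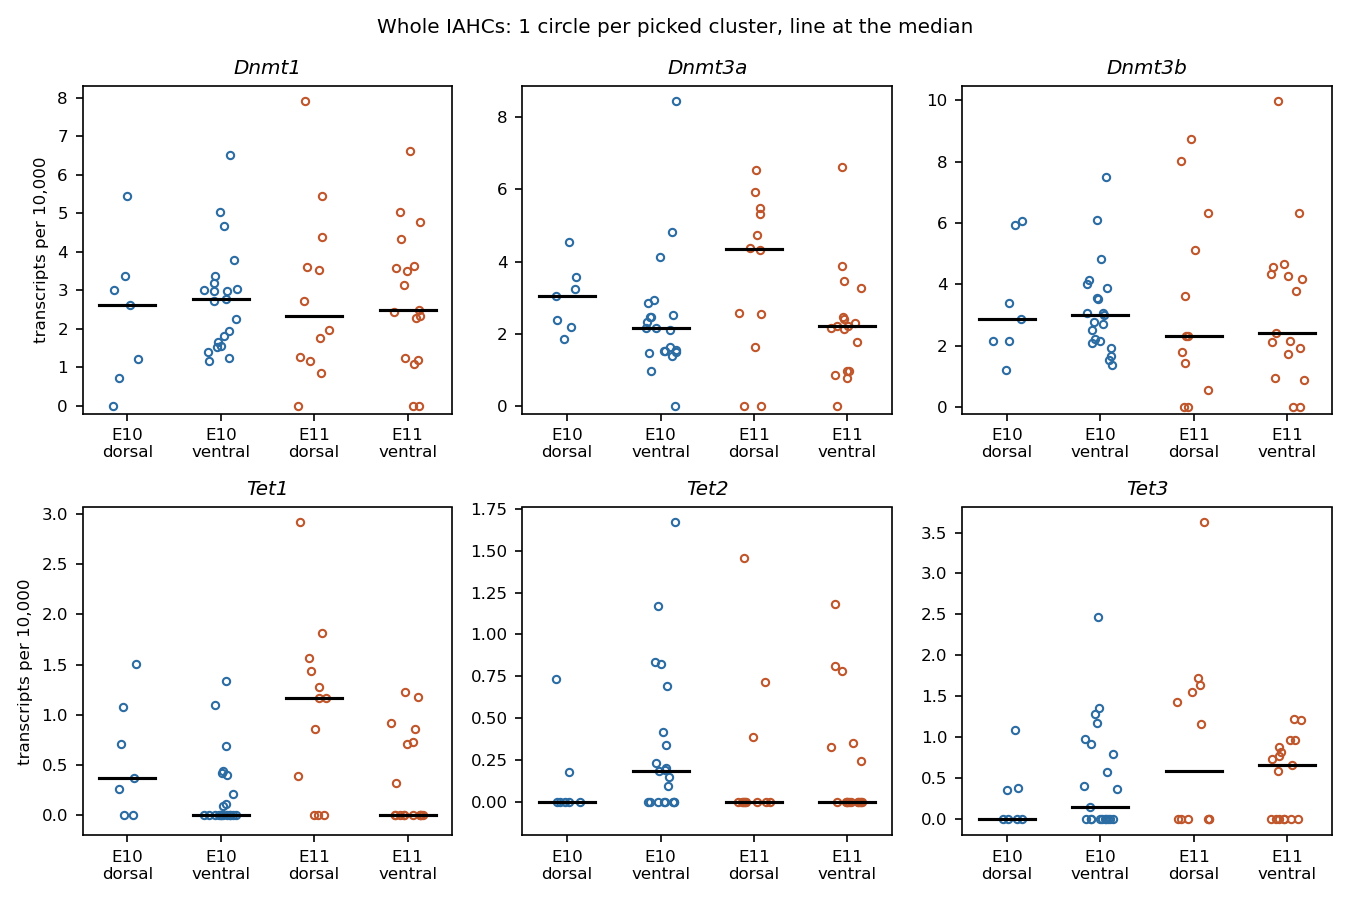
Transcripts per 10000 of the 6 genes in each whole cluster with at least 5000 transcripts, by stage and side, with the group median as a line. The groups overlap for every gene, and the medians of *Dnmt3b* lie between 2.333 and 3.010.

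None of the 6 genes passed the filter on low counts (minimum count 10) that left 260 genes for edgeR's quasi-likelihood test, in which 33.1% of genes were called between stages in ventral clusters, 10% in dorsal clusters and 0% in the 3 other comparisons, which had 20, 25 and 23 unadjusted p values under 0.05. In the fit without that filter, over 13627 genes, 0 of the 6 were called in any of the 5 comparisons and 0 had an unadjusted p under 0.05, where 2.27% of all genes were called between stages in ventral clusters, 0.785% in dorsal clusters, 0.0587% between sides at E10, 0.0881% between sides at E11 and 0.154% in the test of stage by side. With a minimum count of 1, over 6411 genes, 0 of the 6 were called and 0 had an unadjusted p under 0.05, against 4.41%, 2.28%, 0.234%, 0.125% and 0.296% of all genes in the same order. The smallest p over the 5 comparisons was that of *Tet3* in dorsal clusters, with a log2 fold change of 1.11 ± 0.73 (SE) at E11 over E10 (adjusted p = 0.584 by edgeR's quasi-likelihood test with Benjamini-Hochberg adjustment). The log2 fold changes of *Dnmt3b* and *Dnmt1* in ventral clusters were −0.03 ± 0.29 and −0.05 ± 0.30 (SE), both smaller than their errors.

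*Dnmt3a* had the lowest unadjusted p of the 6 genes by DESeq2. Between E11 ventral and dorsal clusters its log2 fold change was −0.46 ± 0.39 (SE; adjusted p = 0.714 by edgeR's quasi-likelihood test). With DESeq2 and a minimum count of 1, a setting chosen after seeing the data, it was −0.98, with an unadjusted p of 0.00165 and an adjusted p of 0.603. The median over all genes in this comparison was 0.24 by edgeR and −0.22 by DESeq2, so the values of *Dnmt3a* relative to the median were closer to each other than the fold changes. In E11 dorsal clusters the *Dnmt3a* mean was 4.34 per 10000 in the first collection set (n = 6) and 2.90 in the second (n = 6). The ventral means of the same sets were 2.57 (n = 4) and 2.18 (n = 13), lower than the dorsal mean in each. DESeq2 called 0 of the 6 genes in all 5 comparisons, against 3.45%, 0.983%, 0%, 0.0156% and 0% of all genes. Of the 6, 2 had an unadjusted p under 0.05 between stages in dorsal clusters (*Dnmt3a* and *Tet3*), against 9.08% of all genes. Between sides at E11 this held for 1 of the 6, against 5.38% of all genes. Of the 49 listed partners 44 were tested without the filter, and 0 were called. Each comparison gave 1 to 4 unadjusted p values under 0.05 among them, against 5.3% to 14.8% of all genes.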

How the data were processed

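CEL-Seq libraries with unique molecular identifiers were made from sorted single cells and from picked whole clusters. Per the labels and the submitters' processing notes, the authors mapped reads with BWA 0.6.2-r126 to mm10, counted 3′ ends and deposited estimated counts of transcripts, corrected for identifier collisions. Single cells were deposited after downsampling by the authors to 3000 (E10) or 5000 (E11) transcripts with 0.1 added to each value, and the offset was removed here. No pair of cells was identical.

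Values of wIAHCs came from 256 identifier sequences. Libraries with at least 5000 transcripts were kept, estimated counts were rounded, and edgeR 4.0.16 (quasi-likelihood test, TMM scaling, minimum count 10, adjusted p threshold 0.05) in R 4.3.3 was fitted over stage, side and their interaction, with the collection sets as labelled in the column names kept for separate values. Since no member passed that filter, which departs from the planned design, member values are those of the planned fit without it. DESeq2 1.42.0 was an alternative. Scripts used Python 3.11.15, numpy 2.4.6, pandas 2.3.3, scipy 1.17.1 and matplotlib 3.10.9 and were tested on simulated data.

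Single-cell ratios have exact conditional binomial 95% intervals, shares have Clopper-Pearson intervals, and a count of 0 was taken to allow 3 transcripts. Named genes were the 6 members in each comparison, listed partners past 2-fold (or past the adjusted p in wIAHCs), and the 3 genes most correlated with each member that reached 0.5 transcripts per cell. Members and gene lists were chosen with earlier results of these data known. The promoter letters, the minimum count of 1 and the fit of that minimum with the collection set as a term were chosen after seeing the data. Promoter sequences are from RefSeq on GRCm38.p6. Some listed partners past 2-fold are not reported here by name.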

Additional observations from a re-analysis of the deposited data

Results flagged for a closer look

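Among the Tet genes in the 7 E10 dorsal whole clusters, the gap between the highest library and the next was large against the range for 2 genes. The highest *Tet2* library held 0.732 transcripts per 10000 and the highest *Tet3* library 1.08, where 5 of the 7 libraries held no *Tet2* and 4 of the 7 no *Tet3* transcript. Each of these values is a single transcript, in libraries of 13688 and 9276 transcripts, and the library with the most transcripts of both genes (2 of *Tet2* and 4 of *Tet3*) had 115328 in all. Such gaps were looked for in 6 groups, 1 for each gene in that group of clusters, and chance alone is expected to flag about 1 group in 20.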

How the results depend on the processing

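In single cells, 7 ratios of the members passed 2-fold between populations of the same stage. A further 2, *Dnmt1* and *Dnmt3b* in HE, passed it between stages and are not in this count. The count was 6 to 7 when a collection set was left out and 8 with E11 cells thinned to 3000 transcripts. With thinning, *Tet3* from E11 non-HE to HE (1.05) and *Dnmt3a* from E11 IAHC to YS HSPCs (−1.09) entered and *Tet2* was under the minimum level. At the deposited depth, equal in both populations, the *Tet3* log2 ratio was 0. The thinning was a single random draw, which kept 6 of 15 *Tet3* transcripts in E11 non-HE and 19 of 23 in E11 HE. Leaving out sets gave log2 ratios of 0.99 to 1.89 for *Dnmt1* and 2.50 to 3.40 for *Dnmt3b* from E10 non-HE to HE, 1.4797 to 1.6458 for *Dnmt3b* from E10 HE to EHT, −2.16 to −1.52 and −1.60 to −1.32 for *Tet3* from E11 EHT to type I pre-HSCs and IAHC cells, and −2.08 to −1.06 for *Tet2* from E11 non-HE to HE. Without the second E11 non-HE set, *Tet2* was under the minimum level and *Dnmt3b* from E11 non-HE to HE entered as lower (−1.06), at an unchanged count of 7. No single-cell ratio past 2-fold reversed under the alternatives run, which included keeping only the IAHC cells that met the *Gpr56* rule.

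In wIAHCs, 86 genes were called between stages in ventral clusters, 26 in dorsal clusters and 0 in the 3 other comparisons. Without the filter these counts were 310, 107, 8 (sides at E10), 12 (sides at E11) and 21 (interaction), and with a minimum count of 1 they were 283, 146, 15, 8 and 19. DESeq2 with that minimum gave 221, 63 and, between sides at E11, 1. Dorsal counts were 51 without TMM and 3 with at least 10000 transcripts per library. Without the second E11 collection set 44 ventral, 16 dorsal and 1 between sides at E11 were called. None of the members was called in any of these fits that tested them. Between stages in dorsal clusters *Dnmt1* and *Dnmt3b* gave −0.17 and −0.23 by edgeR and 0.46 and 0.38 by DESeq2, beside medians of all genes of −0.35 and 0.37. The median of all genes thus moved with them, and the cause was not tested.

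The labels give no replicate numbers, but column names give 2 collection sets of E11 clusters on both sides. With the set as a term, 0 genes were called between sides at E11, and 18 with a minimum count of 1, none a member (*Dnmt3a* −0.24, *Dnmt3b* 0.43). Depth limits the Tet genes, at 1 to 49 transcripts per population where any was counted. It also limits *Dnmt3b* in E10 non-HE, at 2 transcripts, and in E11 non-HE and HE, at 8 each.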
